A study of Mus musculus with 12 samples.

Results

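The Hox genes of the 4 clusters were described in denervated fat of the mouse. Of the 47729 genes in the files, 39 had a symbol made of Hox, a cluster letter from a to d and a paralogue number, and 38 of these are described here. They comprise 10 genes of HoxA on chromosome 6, 10 of HoxB on chromosome 11, 9 of HoxC on chromosome 15 and 9 of HoxD on chromosome 2. The members were chosen by symbol alone, so no measured value entered the choice.

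Hox genes encode homeodomain transcription factors that give cells their position along the body axis. Within a cluster the genes lie in the order of their paralogue numbers, and in the embryo low-numbered (anterior) genes are active from nearer the head while high-numbered (posterior) genes are active nearer the tail. Adult mesenchymal cells, including the stroma and adipocytes of fat depots, are known to keep a Hox pattern that depends on where in the body they arose. Hox proteins bind DNA together with TALE homeodomain cofactors (Pbx, Meis and Pknox), and in the embryo the caudal-type factors (Cdx) act on the clusters, while Polycomb and Trithorax proteins hold their off and on states.

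RNA-seq libraries had been made from 4 depots, with 3 libraries each: interscapular brown adipose tissue (BAT), and inguinal (IWAT), epididymal (EWAT) and retroperitoneal (RWAT) white adipose tissue. All 12 libraries came from male wild-type C57BL/6J mice of 6 to 10 weeks on a standard low-fat diet, and all tissues had been surgically denervated, with no innervated tissue analysed here. BAT lies between the shoulder blades, IWAT under the skin of the groin, EWAT beside the testis and epididymis, and RWAT behind the abdominal cavity near the kidney. Whether each library stands for its own mouse is not stated in the labels, so p-values speak only to library-to-library spread, part of which may be technical.

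Totals ranged from 15699912 to 25633413 estimated counts per library, of which 1329 to 3392 fell on the Hox genes. Mitochondrial transcripts took 3.28% to 19.0% of the counts. Several libraries stood apart by marker genes. Ucp1, the uncoupling protein that defines brown fat, was at 1190, 21.7 and 563 TPM in BAT and at 27.2, 93.6 and 22.9 TPM in IWAT, so the library labelled BAT replicate 2 lay below all 3 IWAT libraries. Zic1, a marker of interscapular brown fat, was at 0.51, 0.72 and 7.05 TPM in BAT and at most at 0.82 TPM elsewhere, in RWAT replicate 3. The brown fat marker Lhx8 went the other way from Ucp1, at 3.05, 12 and 9.93 TPM in BAT. Elsewhere it was at most at 4.42 TPM, in IWAT replicate 3, so BAT replicate 2 was the highest library by Lhx8. Cidea, also a brown fat marker, was at 494, 50.5 and 272 TPM in BAT. In IWAT it was at 85.8, 121 and 17.1 TPM, so BAT replicate 2 lay within the IWAT range. The 18 skeletal muscle markers summed to 23400, 16500 and 2750 CPM (counts scaled to library size) in BAT and to 19000 CPM in the library RWAT replicate 3, while the remaining 8 libraries had 23.0 to 90.5 CPM. The 10 epididymis markers summed to 1380 CPM in EWAT replicate 1 and to at most 6.17 CPM elsewhere. The 10 testis germ cell markers summed to 489 CPM in EWAT replicate 2, 150 CPM in EWAT replicate 3 and at most 1.11 CPM elsewhere, and the 8 kidney and adrenal markers to 65.3 CPM in EWAT replicate 2 and at most 20.1 CPM elsewhere. The 12 mesothelium markers summed to 15.0 to 19.0 CPM in BAT, 22.5 to 26.8 in IWAT, 159 to 356 in EWAT and 106 to 395 in RWAT. In bulk tissue, fewer cells of a type and less RNA per cell cannot be told apart.

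Levels are given in TPM, which are scaled by library and by transcript length, so that different genes can be compared. A gene was taken as detected in a depot when each of its 3 libraries held at least 10 estimated counts. By this rule 18 Hox genes were detected in BAT, 23 in IWAT, 22 in EWAT and 23 in RWAT, and 25 in at least 1 depot. The 18 genes detected in BAT were the same 18 that were detected in all 4 depots. In BAT the detected set ended at Hoxa7, Hoxb7, Hoxc8 and Hoxd9. In IWAT it reached Hoxa10, Hoxb9, Hoxc10 and Hoxd9, in EWAT Hoxa10, Hoxb8, Hoxc9 and Hoxd9, and in RWAT Hoxa10, Hoxb7, Hoxc10 and Hoxd9. These ends depend on the limit. At 3 counts, 22 genes were detected in BAT, among them Hoxb9 (7, 10 and 6 counts) and Hoxc9 (6, 14 and 4). Hoxb9 also had 11, 11 and 7 counts in EWAT and 8, 16 and 13 in RWAT. With a mean of at least 1 TPM as the limit, Hoxd9 (0.633 TPM) was not detected in BAT. Hoxb13, Hoxc12, Hoxc13 and Hoxd12, from the posterior ends of their clusters, had no count in any of the 12 libraries. For a gene with no count, the upper limit on its level was 0.117 to 0.191 CPM, depending on the library, and such limits cover counting error only.

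**Figure D1:**
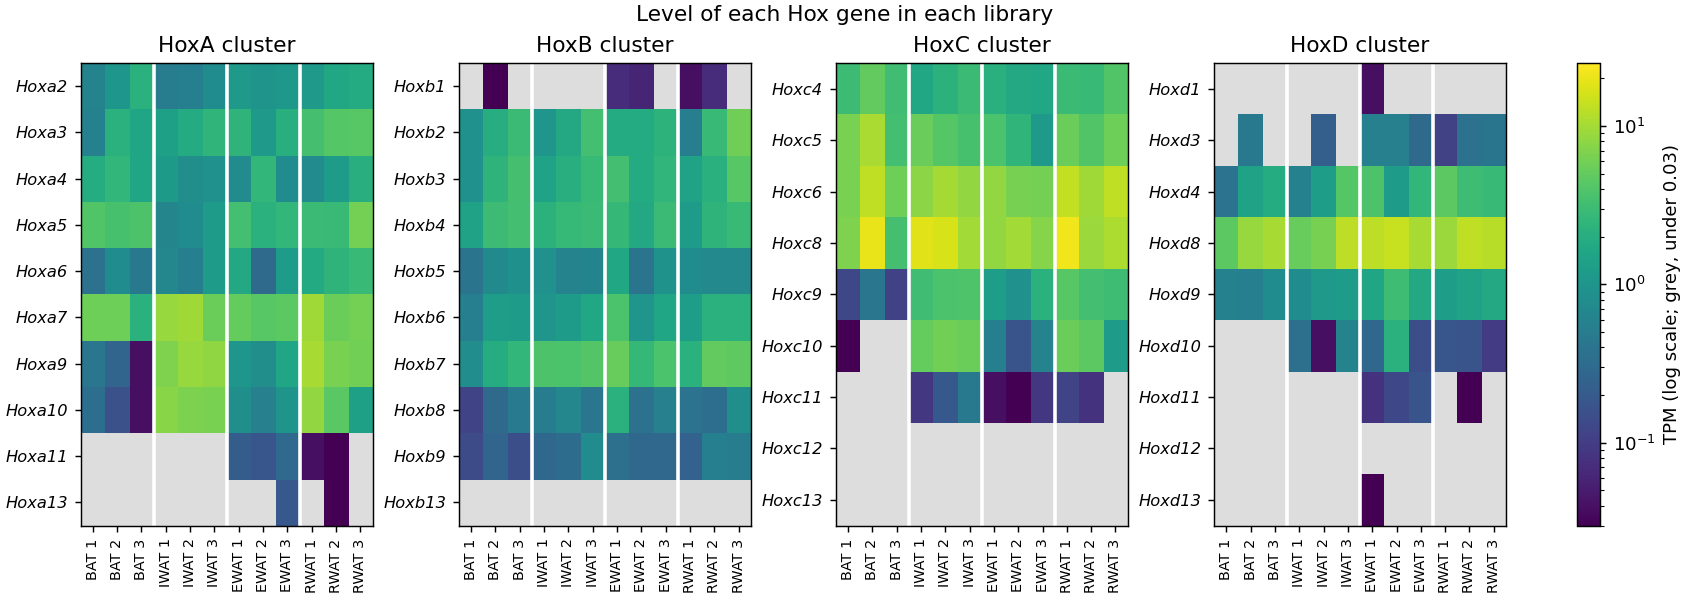
TPM of the 38 Hox genes (rows, by cluster and paralogue number) in the 12 libraries (columns, by depot and replicate), on a log colour scale with values under 0.03 in grey. Genes numbered up to 8 show signal across all 4 depots, apart from Hoxb1, Hoxd1 and Hoxd3, while Hoxa9, Hoxa10, Hoxc9 and Hoxc10 are dark or grey in BAT and bright in IWAT and in RWAT.

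Hoxc8, which patterns the thorax and is among the most posterior genes detected in BAT, had the highest mean TPM of the members in BAT (10.1 ± 8.78), IWAT (15.0 ± 4.58) and RWAT (13.8 ± 6.74; SD, n = 3 each). In EWAT the highest was Hoxd8, at 12.5 ± 1.88 TPM. Hoxc6, Hoxc8 and Hoxd8 were the leading 3 genes in every depot, in differing order. The summed Hox level was 47.8, 88.9 and 55.5 TPM in the BAT libraries, 87.6, 94.9 and 96.7 TPM in IWAT, 81.3, 66.0 and 64.9 TPM in EWAT, and 115, 97.1 and 108 TPM in RWAT. The BAT libraries overlapped those of IWAT and EWAT in this sum of TPM and lay below those of RWAT. With the Hox genes summed in TMM-scaled CPM, BAT and RWAT overlapped.

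The depots differed in how much of the Hox signal came from the posterior paralogue groups 9 to 13. These groups held 3.43%, 1.87% and 2.02% of the Hox TPM in the BAT libraries, 27.7%, 28.3% and 27.9% in IWAT, 7.71%, 12.6% and 12.8% in EWAT, and 26.4%, 21.8% and 12.9% in RWAT. Every BAT library lay below every white fat library, and IWAT lay above all others, by these shares. The lowest RWAT library, replicate 3, was the one with skeletal muscle markers, and without it the mean RWAT share was 24.1% in place of 20.4%. All 3 BAT libraries carried muscle markers too, so these move with the low BAT shares. The BAT library with the lowest muscle sum, 2750 CPM in replicate 3, had a share of 2.02%, against 3.43% in replicate 1 with the highest, 23400 CPM. The part of muscle in the shares and levels of BAT and of RWAT replicate 3 was not tested. The library labelled BAT replicate 2, low in Ucp1, had the lowest share of all, and without it the mean BAT share was 2.72% in place of 2.44%. Within clusters, groups 9 to 13 made up 2.92% ± 2.40 of the HoxA signal in BAT, 52.9% ± 1.37 in IWAT, 14.9% ± 4.27 in EWAT and 36.8% ± 12.5 in RWAT (SD, n = 3 each). For HoxC the shares were 0.75% ± 0.09 in BAT, 23.9% ± 4.24 in IWAT, 9.27% ± 5.21 in EWAT and 17.9% ± 6.38 in RWAT. HoxB gave 1.97% ± 0.858 in BAT, 3.21% ± 1.2 in IWAT, 2.13% ± 0.534 in EWAT and 2.89% ± 0.558 in RWAT, so its depots overlapped. In HoxD the order was another, with 7.04% ± 2.96 in BAT, 13.1% ± 3.45 in IWAT, 16.3% ± 7.92 in EWAT and 9.81% ± 0.948 in RWAT, and the BAT libraries overlapped those of each white depot. These shares are descriptions of the libraries and were not tested.

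**Figure D2:**
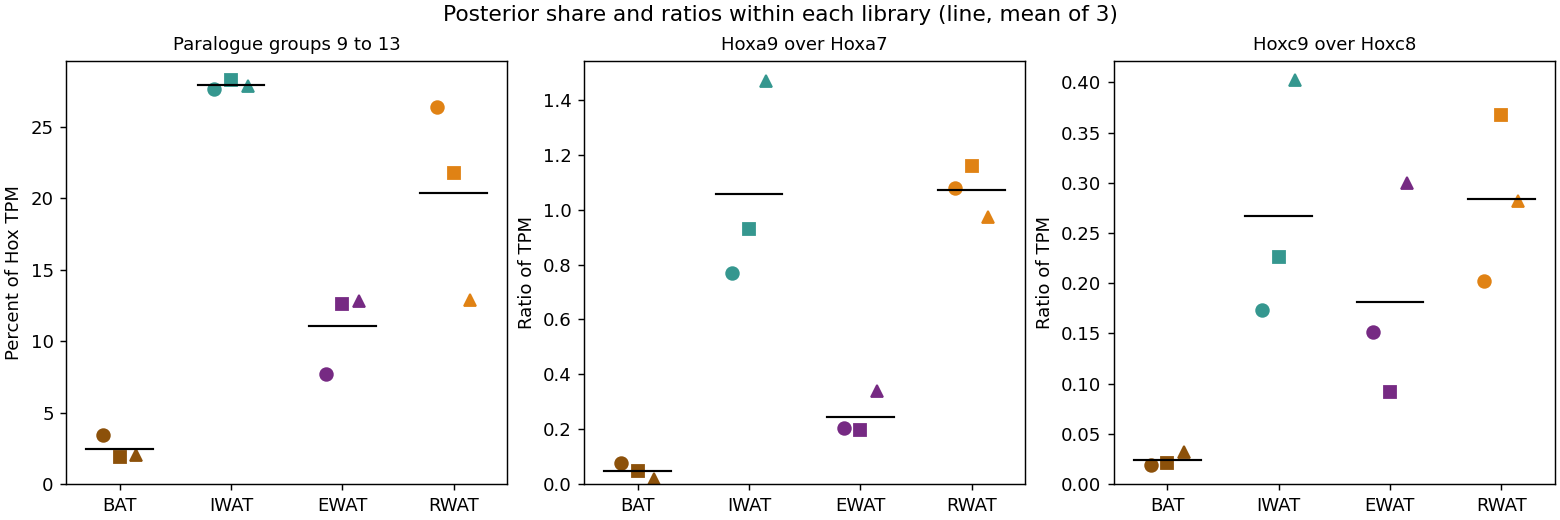
Percent of the Hox TPM from paralogue groups 9 to 13, and the TPM ratios Hoxa9 over Hoxa7 and Hoxc9 over Hoxc8 (vertical axes), in each library of the 4 depots; circles, squares and triangles are replicates 1, 2 and 3, and lines are means. The posterior share is 1.87% to 3.43% in BAT and 27.7% to 28.3% in IWAT, and both ratios are lower in each BAT library than in any other library.

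In the HoxA cluster, the step that set BAT apart from IWAT and RWAT lay between Hoxa7 and Hoxa9, which neighbour each other on chromosome 6. The RefSeq promoter windows of the genes on both sides of the step, and of Hoxa5, which had its lowest levels in IWAT, are shown here. Each runs from 250 bases before to 50 bases after a RefSeq start on the minus strand of GRCm38.p6: chr6:52204538-52204837 for Hoxa5, chr6:52218524-52218823 for Hoxa7, chr6:52227321-52227620 for Hoxa9, and chr6:52234890-52235189 and chr6:52240805-52241104 for the pair of Hoxa10 starts. Capitals mark TTTATG, a core of the sites bound by caudal-type factors, searched on both strands.
Hoxa5: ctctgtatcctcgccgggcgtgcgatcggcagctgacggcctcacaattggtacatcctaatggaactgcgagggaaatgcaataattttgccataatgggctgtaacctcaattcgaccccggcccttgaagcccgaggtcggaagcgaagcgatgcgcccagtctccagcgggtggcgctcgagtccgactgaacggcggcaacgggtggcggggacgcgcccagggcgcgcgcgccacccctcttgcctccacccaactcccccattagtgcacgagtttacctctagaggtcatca
Hoxa7: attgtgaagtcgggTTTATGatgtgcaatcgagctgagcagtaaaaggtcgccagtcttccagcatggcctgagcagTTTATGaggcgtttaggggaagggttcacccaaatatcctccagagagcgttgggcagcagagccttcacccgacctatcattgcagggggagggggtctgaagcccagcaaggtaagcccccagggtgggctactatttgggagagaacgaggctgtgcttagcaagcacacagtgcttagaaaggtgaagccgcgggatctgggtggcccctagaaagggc
Hoxa9: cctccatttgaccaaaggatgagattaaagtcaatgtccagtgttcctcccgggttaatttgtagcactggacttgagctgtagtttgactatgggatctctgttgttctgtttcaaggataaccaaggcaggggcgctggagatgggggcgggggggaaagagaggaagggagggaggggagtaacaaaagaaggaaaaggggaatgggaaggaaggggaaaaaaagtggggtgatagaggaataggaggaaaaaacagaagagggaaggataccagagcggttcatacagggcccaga
Hoxa10 at the first start: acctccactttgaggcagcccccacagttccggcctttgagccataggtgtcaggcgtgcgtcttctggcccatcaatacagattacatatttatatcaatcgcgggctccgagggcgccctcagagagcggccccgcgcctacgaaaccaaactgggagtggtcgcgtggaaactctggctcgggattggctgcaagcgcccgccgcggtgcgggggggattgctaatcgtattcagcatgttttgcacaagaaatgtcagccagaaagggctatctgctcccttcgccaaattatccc
Hoxa10 at the second start: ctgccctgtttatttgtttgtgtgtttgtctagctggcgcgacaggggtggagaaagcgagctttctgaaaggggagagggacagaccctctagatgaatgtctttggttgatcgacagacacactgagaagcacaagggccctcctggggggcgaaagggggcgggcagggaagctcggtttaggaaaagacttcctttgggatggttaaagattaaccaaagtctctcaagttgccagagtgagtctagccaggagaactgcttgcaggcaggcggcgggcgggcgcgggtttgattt
Hoxa7 held 2 matches, which do not overlap each other, and the windows of Hoxa5, Hoxa9 and Hoxa10 held none; of all 32851 promoter windows of the same length, 11.9% held at least 1. The 8-letter pattern TGATNNAT of Hox and Pbx dimers, also searched on both strands, matched none of these 5 windows and 8.85% of all windows. The windows held 29 CpG dinucleotides in Hoxa5, 9 in Hoxa7, 4 in Hoxa9, and 21 and 12 in Hoxa10, against a median of 7 over all windows. The Hoxa5, Hoxa9 and Hoxa10 starts fell on starts of GENCODE transcripts, and that of Hoxa7 lay 138 bases from the nearest one. The files hold no readout at these windows, so matches describe letters only. RefSeq windows were found for 22 of the 38 members.

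Hoxa7, a thoracic patterning gene, had 5.63, 5.70 and 2.19 TPM in BAT, 8.87, 9.60 and 5.53 TPM in IWAT, 5.10, 4.31 and 4.58 TPM in EWAT, and 9.58, 5.57 and 6.07 TPM in RWAT. The EWAT libraries lay below those of IWAT and of RWAT in TPM, though not on the scale of the test, and the other pairs of depots overlapped. Hoxa7 did not pass the test for any depot difference (edgeR's quasi-likelihood test with Benjamini-Hochberg adjustment, adjusted p = 0.551). Hoxa9, the next gene, which acts in the lumbar axis and the limb, had 0.42, 0.27 and 0.04 TPM in BAT, 6.81, 8.94 and 8.12 TPM in IWAT, 1.04, 0.84 and 1.55 TPM in EWAT, and 10.3, 6.44 and 5.92 TPM in RWAT. All BAT libraries were the lowest, the EWAT libraries came next, and IWAT and RWAT overlapped at the top. In TMM-scaled CPM, the scale of the test, BAT (0.0978 to 1.02) and EWAT (0.642 to 1.45) overlapped. Hoxa9 passed the test for any depot difference (adjusted p = 0.0406, edgeR). It was 1 of 3 members that did so, of 25 tested (12%), against 98 of all 19154 genes tested (0.512%). The ratio of Hoxa9 to Hoxa7 TPM, taken within a library and so free of library scaling, was 0.0746, 0.0474 and 0.0183 in BAT, 0.768, 0.931 and 1.47 in IWAT, 0.204, 0.195 and 0.338 in EWAT, and 1.08, 1.16 and 0.975 in RWAT. No BAT or EWAT library reached the ratios of IWAT or RWAT.

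Hoxa10, which acts in lumbar patterning and in the uterus and limb, had 0.34, 0.16 and 0.04 TPM in BAT, 7.55, 6.56 and 6.38 TPM in IWAT, 0.85, 0.56 and 0.98 TPM in EWAT, and 8.32, 4.50 and 1.37 TPM in RWAT. The BAT libraries were again the lowest in TPM, and RWAT spread widely, with replicate 3, which carries muscle markers, near EWAT. In TMM-scaled CPM, BAT (0.0489 to 0.63) and EWAT (0.6 to 1.32) overlapped. Hoxa10 missed the threshold for any depot difference (adjusted p = 0.0591, edgeR), and without RWAT replicate 3 or replicate 1 it passed. It also passed with DESeq2, with library sizes alone, without the low-count filter and with the replicate number as a block. It did not pass with RLE scaling or without any other single library. Between IWAT and EWAT, the fitted log2 difference was 3.45 for Hoxa9 (SE 0.67, edgeR adjusted p = 0.0517) and 3.36 for Hoxa10 (SE 0.79, edgeR adjusted p = 0.0899), neither past the threshold. For BAT against EWAT, the log2 fold change of Hoxa9 was -0.90 (SE 0.68, edgeR adjusted p = 0.385). That of Hoxa10 was -1.57 (SE 0.85, edgeR adjusted p = 0.243), and DESeq2 called neither gene in this comparison. Hoxa11 was counted 7, 6 and 7 times in EWAT and 1, 1 and 0 times in RWAT, with no count in BAT or IWAT. With a floor of 3 counts over the group put in place of 0 and scaled to depth, its level was 5.18-fold lower in BAT than in EWAT. In IWAT it was 6.13-fold lower than in EWAT. The floor does not cover the counting error of the higher depot. Hoxa13 had 5 counts in EWAT replicate 3, 1 in RWAT replicate 2 and none elsewhere.

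**Figure D3:**
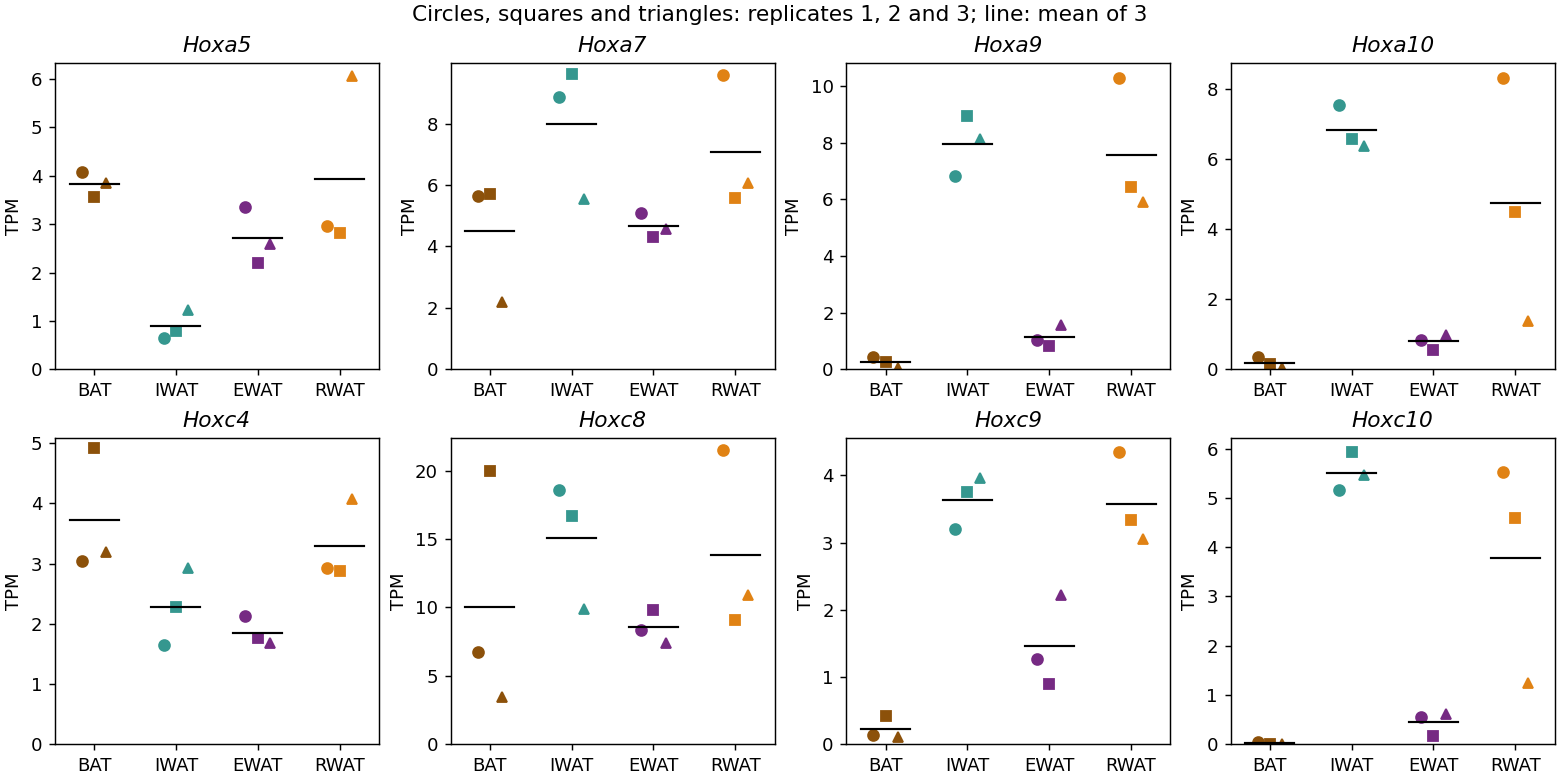
TPM of 8 Hox genes (vertical axes, each on its own scale) in the 4 depots; circles, squares and triangles are replicates 1, 2 and 3, and lines are means of 3. Hoxa9, Hoxa10, Hoxc9 and Hoxc10 are lowest in BAT, low in EWAT and highest in IWAT and RWAT, Hoxa5 is lowest in IWAT, and BAT overlaps every other depot for Hoxa7 and Hoxc8.

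In the HoxC cluster the step lay between Hoxc8 and Hoxc9, so that in both clusters it fell just before paralogue group 9. Hoxc8 had 6.74, 20 and 3.41 TPM in BAT, 18.6, 16.7 and 9.85 TPM in IWAT, 8.35, 9.81 and 7.40 TPM in EWAT, and 21.5, 9.07 and 10.9 TPM in RWAT. The EWAT libraries lay below those of IWAT in TPM by a narrow margin, though not on the scale of the test, and the other pairs of depots overlapped. The highest BAT value came from the library low in Ucp1. Hoxc9, which acts in thoracic patterning and in motor neurons, had 0.13, 0.42 and 0.11 TPM in BAT, 3.20, 3.76 and 3.96 TPM in IWAT, 1.26, 0.90 and 2.22 TPM in EWAT, and 4.35, 3.33 and 3.06 TPM in RWAT. Its BAT libraries did not overlap any other depot, and EWAT lay between BAT and the other two depots. Hoxc9 passed the test for any depot difference (adjusted p = 0.0406, edgeR). Its log2 fold change was -2.06 (SE 0.52) for BAT against EWAT, -3.75 (SE 0.53) for BAT against IWAT and -3.42 (SE 0.53) for BAT against RWAT, with edgeR adjusted p-values of 0.0667, 0.106 and 0.0839, none past the threshold.

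Hoxc10, which lies next on chromosome 15 (chr15:102966796-102971893, plus strand) and acts in the lumbar spinal cord and hindlimb, was close to absent from BAT. Its estimated counts were 1, 0 and 0 in BAT, 212, 174 and 114 in IWAT, 14, 5 and 13 in EWAT, and 131, 115 and 27 in RWAT. In TPM this was 0.03, 0 and 0 in BAT, 5.16, 5.93 and 5.46 in IWAT, 0.54, 0.17 and 0.61 in EWAT, and 5.52, 4.6 and 1.23 in RWAT. The depots BAT, EWAT and the remaining pair did not overlap, and RWAT replicate 3 had the lowest value among IWAT and RWAT. That library and all 3 BAT libraries are those with muscle markers. With 1 count in BAT against 500 in IWAT, the IWAT level was 423 times that of BAT (exact 95% interval 75.5 to 16700). With 273 counts in RWAT its level was 230 times that of BAT (41.0 to 9130), and with 32 in EWAT 24.9 times that of BAT (4.16 to 1010). Hoxc10 had the lowest adjusted p of the members for any depot difference (adjusted p = 0.0179, edgeR). In BAT against RWAT it fell by 7.43 on the log2 scale (SE 1.03, edgeR adjusted p = 0.0415); the fitted size depends on the prior count, since BAT is near 0. This call held without RWAT replicate 3 and was lost without any 1 of the other 11 libraries, with edgeR adjusted p-values of at most 0.238. In BAT against IWAT its log2 fold change of -8.29 (SE 1.04, edgeR adjusted p = 0.0554) missed the threshold. Hoxc11 had no count in BAT, 4, 6 and 10 counts in IWAT, 1, 1 and 2 in EWAT and 3, 2 and 0 in RWAT. With the floor of 3 counts in place of 0, BAT was 5.64-fold lower than IWAT.

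These 3 calls for any depot difference rested on few libraries. The Hoxc10 call was lost without BAT replicate 1, 2 or 3, IWAT replicate 1 or 2, or EWAT replicate 2, with edgeR adjusted p-values of at most 0.0712. The Hoxc9 and Hoxa9 calls were each lost without 8 of the 12 libraries, with adjusted p-values of at most 0.123 for Hoxc9 and 0.124 for Hoxa9 (edgeR). Leaving out RWAT replicate 3 gave 5 members called in place of 3, while the calls over all genes numbered 363 in place of 98. Leaving out the library labelled BAT replicate 2 gave 1 member and 43 genes in all. With DESeq2, 8 members were called in the same comparison, against 2151 of all genes.

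**Figure D4:**
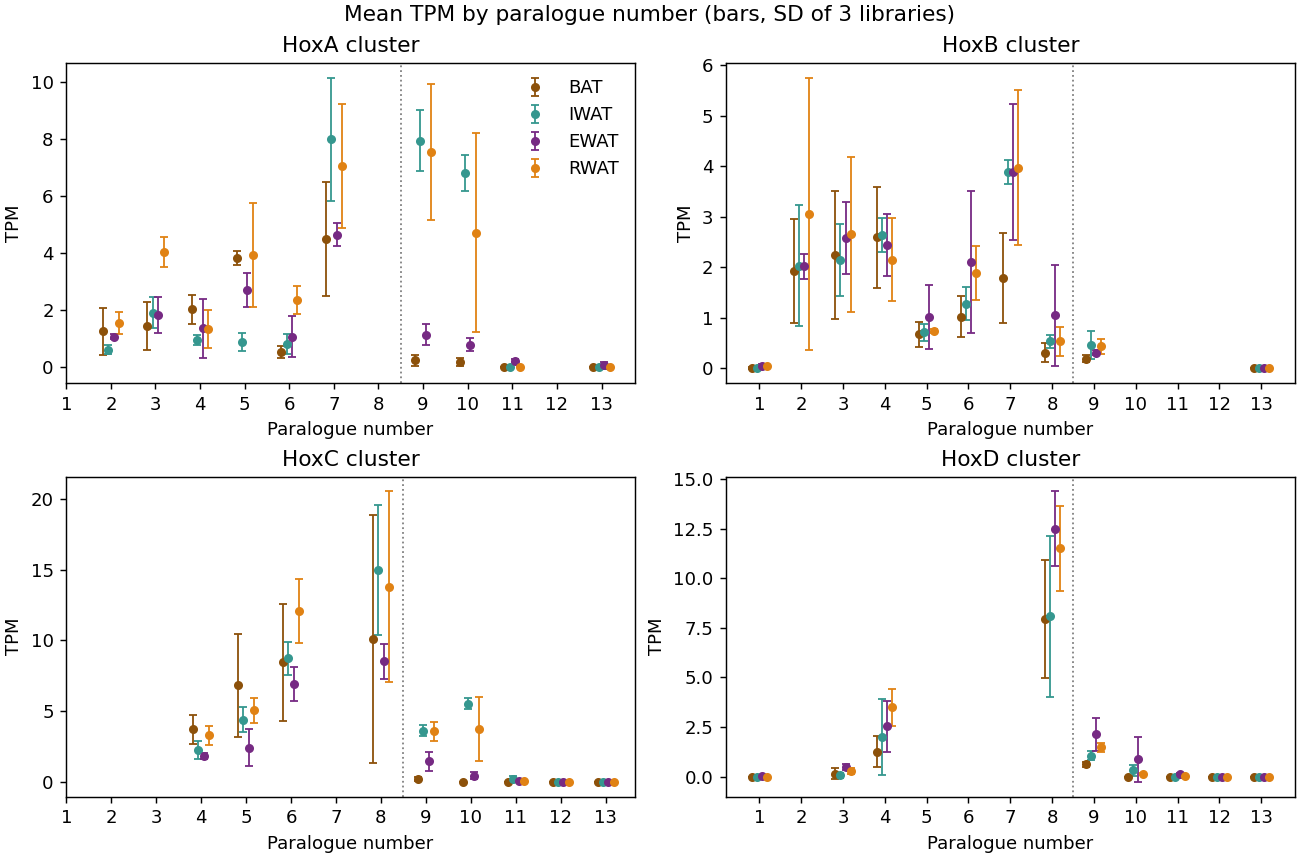
Mean TPM (vertical axes; bars, SD of 3 libraries) against paralogue number for the 4 clusters, with BAT, IWAT, EWAT and RWAT in separate colours; the dotted line separates groups 1 to 8 from groups 9 to 13. Right of the line, HoxA and HoxC reach 7.96 TPM for Hoxa9 and 5.52 TPM for Hoxc10 in IWAT, while BAT stays near 0, and HoxB is low in all depots.

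Among the central genes, Hoxa5 ran the other way. Hoxa5, a regulator of cervical and thoracic patterning and of lung development, had 4.08, 3.57 and 3.86 TPM in BAT, 0.64, 0.80 and 1.22 TPM in IWAT, 3.35, 2.19 and 2.59 TPM in EWAT, and 2.96, 2.81 and 6.06 TPM in RWAT. Each IWAT library lay below every library of the other depots, yet Hoxa5 missed the threshold (adjusted p = 0.0704 for any depot difference, edgeR). DESeq2 called it there, as 1 of 8 members and 2151 genes, and edgeR called it without the low-count filter or without RWAT replicate 3. The other alternatives left it uncalled. The log2 fold change of Hoxa5 was 2.58 (SE 0.43, edgeR adjusted p = 0.269) for BAT against IWAT and -1.88 (SE 0.42, edgeR adjusted p = 0.436) for IWAT against RWAT. DESeq2 called it in both pairs, among 168 and 175 genes in all. Within a library, the ratio of Hoxa5 to Hoxa7 TPM was 0.725, 0.626 and 1.76 in BAT, 0.0722, 0.0833 and 0.221 in IWAT, 0.657, 0.508 and 0.566 in EWAT and 0.309, 0.504 and 0.998 in RWAT, with all 3 IWAT libraries at the bottom.

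Hoxc4, an anterior gene of its cluster, had 3.05, 4.93 and 3.19 TPM in BAT, 1.64, 2.28 and 2.92 TPM in IWAT, 2.12, 1.76 and 1.68 TPM in EWAT, and 2.93, 2.87 and 4.08 TPM in RWAT. The BAT libraries lay above those of IWAT and EWAT and overlapped RWAT. In BAT against EWAT, Hoxc4 rose by 1.66 on the log2 scale (SE 0.32, edgeR adjusted p = 0.0496). It was the 1 member of 25 called in that comparison (4.0%), where 150 of all genes were called (0.783%). The call was lost without 9 of the 12 libraries, among them the library labelled BAT replicate 2 (adjusted p = 0.114, edgeR) and EWAT replicates 1 and 2, which carry epididymis and testis markers (adjusted p = 0.0517 and 0.173, edgeR). It was also lost with library sizes alone, where its log2 fold change was 1.08 (adjusted p = 0.0771, edgeR) and the median of all genes moved to -0.60, against -0.08 after TMM scaling. Its neighbour Hoxc5 had 6.54, 10.6 and 3.33 TPM in BAT, 5.35, 4.29 and 3.57 TPM in IWAT, 3.75, 2.44 and 1.12 TPM in EWAT, and 5.46, 4.08 and 5.70 TPM in RWAT. BAT and EWAT overlapped in TPM, and the log2 fold change of Hoxc5 in BAT against EWAT was 2.05 (SE 0.49, edgeR adjusted p = 0.0638). Hoxc6 had 5.65 to 13.2 TPM in BAT, 7.80 to 10.1 in IWAT, 6.19 to 8.34 in EWAT and 9.48 to 13.5 in RWAT, with no call.

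The other anterior HoxA genes were low to moderate and not called by edgeR, while DESeq2 called Hoxa2 for any depot difference (adjusted p = 0.0277). Hoxa3, which acts in the pharyngeal arches, had 0.57, 2.22 and 1.56 TPM in BAT, 1.38, 1.89 and 2.47 TPM in IWAT, 2.36, 1.13 and 2.01 TPM in EWAT, and 3.44, 4.30 and 4.40 TPM in RWAT. Every RWAT library lay above every other library in TPM, with an edgeR adjusted p of 0.28 for any depot difference. Hoxa2, a hindbrain and craniofacial patterning gene, ranged from 0.60 to 2.19 TPM in BAT, 0.50 to 0.80 in IWAT, 0.98 to 1.14 in EWAT and 1.12 to 1.87 in RWAT. Hoxa4 ranged from 1.59 to 2.57 TPM in BAT, 0.83 to 1.17 in IWAT, 0.76 to 2.56 in EWAT and 0.77 to 2.08 in RWAT. Hoxa6 ranged from 0.37 to 0.78 TPM in BAT, 0.55 to 1.2 in IWAT, 0.31 to 1.75 in EWAT and 1.84 to 2.81 in RWAT, where again the RWAT libraries lay above all others.

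No HoxB gene was called in any comparison by edgeR or DESeq2, and each of the 8 that were tested had an edgeR adjusted p of at least 0.311 for any depot difference. Hoxb7, the most abundant of the cluster in the white depots, had 0.82, 1.93 and 2.58 TPM in BAT, 3.78, 3.71 and 4.14 TPM in IWAT, 5.30, 2.64 and 3.69 TPM in EWAT, and 2.20, 5.02 and 4.68 TPM in RWAT. Its BAT libraries lay below those of IWAT and EWAT in TPM and overlapped RWAT. In TMM-scaled CPM, BAT (1.57 to 2.5) and EWAT (2.23 to 4.85) overlapped. Hoxb2, Hoxb3 and Hoxb4, the hindbrain and neck-level genes of the cluster, ranged over 0.89 to 3.41 TPM in BAT, 1.00 to 3.35 in IWAT, 1.74 to 3.32 in EWAT and 0.53 to 5.89 in RWAT. EWAT replicate 1 stood above the other libraries for Hoxb5 (1.67 TPM), Hoxb6 (3.69), Hoxb7 (5.30) and Hoxb8 (2.20), against 0.40 to 0.95, 1.01 to 1.59, 2.64 to 3.69 and 0.38 to 0.56 TPM in the other EWAT libraries. That library also held the epididymis markers at 1380 CPM, and their part in these values was not tested. Hoxb9 ranged from 0.14 to 0.77 TPM over the 12 libraries, and Hoxb1 had at most 2 counts in a library.

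In the HoxD cluster no gene was called by edgeR, and DESeq2 called Hoxd9 in BAT against EWAT. Hoxd8 was the most abundant, with 4.62, 8.97 and 10.3 TPM in BAT, 5.23, 6.30 and 12.7 TPM in IWAT, 12.9, 14.2 and 10.5 TPM in EWAT, and 9.14, 13.3 and 12.1 TPM in RWAT. In TPM the depots overlapped, except that the EWAT libraries lay above those of BAT. In TMM-scaled CPM, the scale of the test, the IWAT libraries lay below those of BAT and of RWAT, and the other pairs of depots overlapped. The fitted log2 fold change of Hoxd8 was -0.04 (SE 0.19, edgeR adjusted p = 0.904) for BAT against EWAT. It was 0.29 (SE 0.19, edgeR adjusted p = 0.998) for BAT against IWAT and -0.31 (SE 0.19, edgeR adjusted p = 0.871) for IWAT against RWAT. Hoxd9, which acts in the lumbar axis and the hindlimb, had 0.58, 0.54 and 0.78 TPM in BAT, 0.80, 1.13 and 1.23 TPM in IWAT, 1.57, 3.06 and 1.76 TPM in EWAT, and 1.31, 1.43 and 1.74 TPM in RWAT. Here the BAT libraries were the lowest in TPM, by a narrow margin to IWAT. In TMM-scaled CPM, BAT (1.05 to 1.89) overlapped IWAT (1.51 to 2.05) and RWAT (1.8 to 2.34) and lay below EWAT (2.1 to 4.37). The log2 fold change of BAT against EWAT was -1.08 (SE 0.37, edgeR adjusted p = 0.102, DESeq2 adjusted p = 0.0453). Hoxd10, which acts in the hindlimb and its motor neurons, had no count in BAT, 14, 1 and 12 counts in IWAT, 7, 62 and 3 in EWAT and 4, 4 and 2 in RWAT. With the floor of 3 counts in place of 0, its BAT level was 18.7-fold lower than in EWAT, 7.61-fold lower than in IWAT and 2.81-fold lower than in RWAT. The counting error of the higher depot is again not covered. Of its 72 EWAT counts, 62 came from EWAT replicate 2, the library with testis, kidney and adrenal markers, whose part in this value was not tested. Hoxd11 had 4, 5 and 4 counts in EWAT, 1, 1 and 0 in RWAT and none in BAT or IWAT. Hoxd4 ranged from 0.39 to 4.55 TPM over the 12 libraries, Hoxd3 had at most 21 counts in a library, and Hoxd1 and Hoxd13 had 1 count each, both in EWAT replicate 1. The 13 members left out by the low-count filter were fitted without it, where 9 had counts, and none was called.

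The 6 pairs of depots were compared over all genes, with 25 members tested in each. In BAT against EWAT, the log2 fold changes of the members had a median of -0.02, against -0.08 over all genes. Libraries of these depots did not overlap, on the scale of TMM-scaled CPM, with BAT higher for 6 members (24.0%, against 19.1% of all genes) and with BAT lower for 3 (12%, against 17.8%), shares near the background. In BAT against IWAT no member was called, of 2 genes called in all (0.0104%). In that comparison 8 members and 737 genes had an unadjusted p under 0.05, and DESeq2 called 5 members and 168 genes in all. BAT was higher without overlap for 4 members (16%, against 3.61%) and lower for 5 (20%, against 3.22%), which were Hoxa9, Hoxa10, Hoxb7, Hoxc9 and Hoxc10. In BAT against RWAT, Hoxc10 was the 1 member among 11 genes called (4.0% of members, 0.0574% of all genes). BAT was lower without overlap for 7 members (28.0%, against 9.33%) and higher for 2 (8.0%, against 7.42%).

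Among the white depots no member was called by edgeR. In IWAT against EWAT, 66 genes were called (0.345%), and 6 members and 3104 genes had an unadjusted p under 0.05. There DESeq2 called 4 members, Hoxa9, Hoxa10, Hoxc9 and Hoxc10, and 1128 genes in all. IWAT lay above EWAT without overlap for 7 members (28.0%, against 11.8%), with Hoxc10 at a log2 fold change of 4.02 (SE 0.73, edgeR adjusted p = 0.0517), and below it for 3 (12%, against 13.1%). In IWAT against RWAT no gene was called (0.0%), with 4 members and 847 genes at an unadjusted p under 0.05. There DESeq2 called 1 member, Hoxa5, and 175 genes in all. IWAT lay above RWAT without overlap for 0 members (2.71% of all genes) and below it for 5 (20%, against 3.97%), the anterior or central genes Hoxa2, Hoxa3, Hoxa5 and Hoxa6, and Hoxd8. In EWAT against RWAT 8 genes were called (0.0418%), with 7 members and 1732 genes at an unadjusted p under 0.05. There DESeq2 called Hoxa9, Hoxa10 and Hoxc10, among 546 genes in all. EWAT lay below RWAT without overlap for 9 members (36.0%, against 6.66%) and above it for 0 (8.21% of all genes), and the median log2 fold change of the members was -0.53, against -0.04 over all genes. These 6 comparisons share libraries, so their values are not independent of each other.

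**Figure D5:**
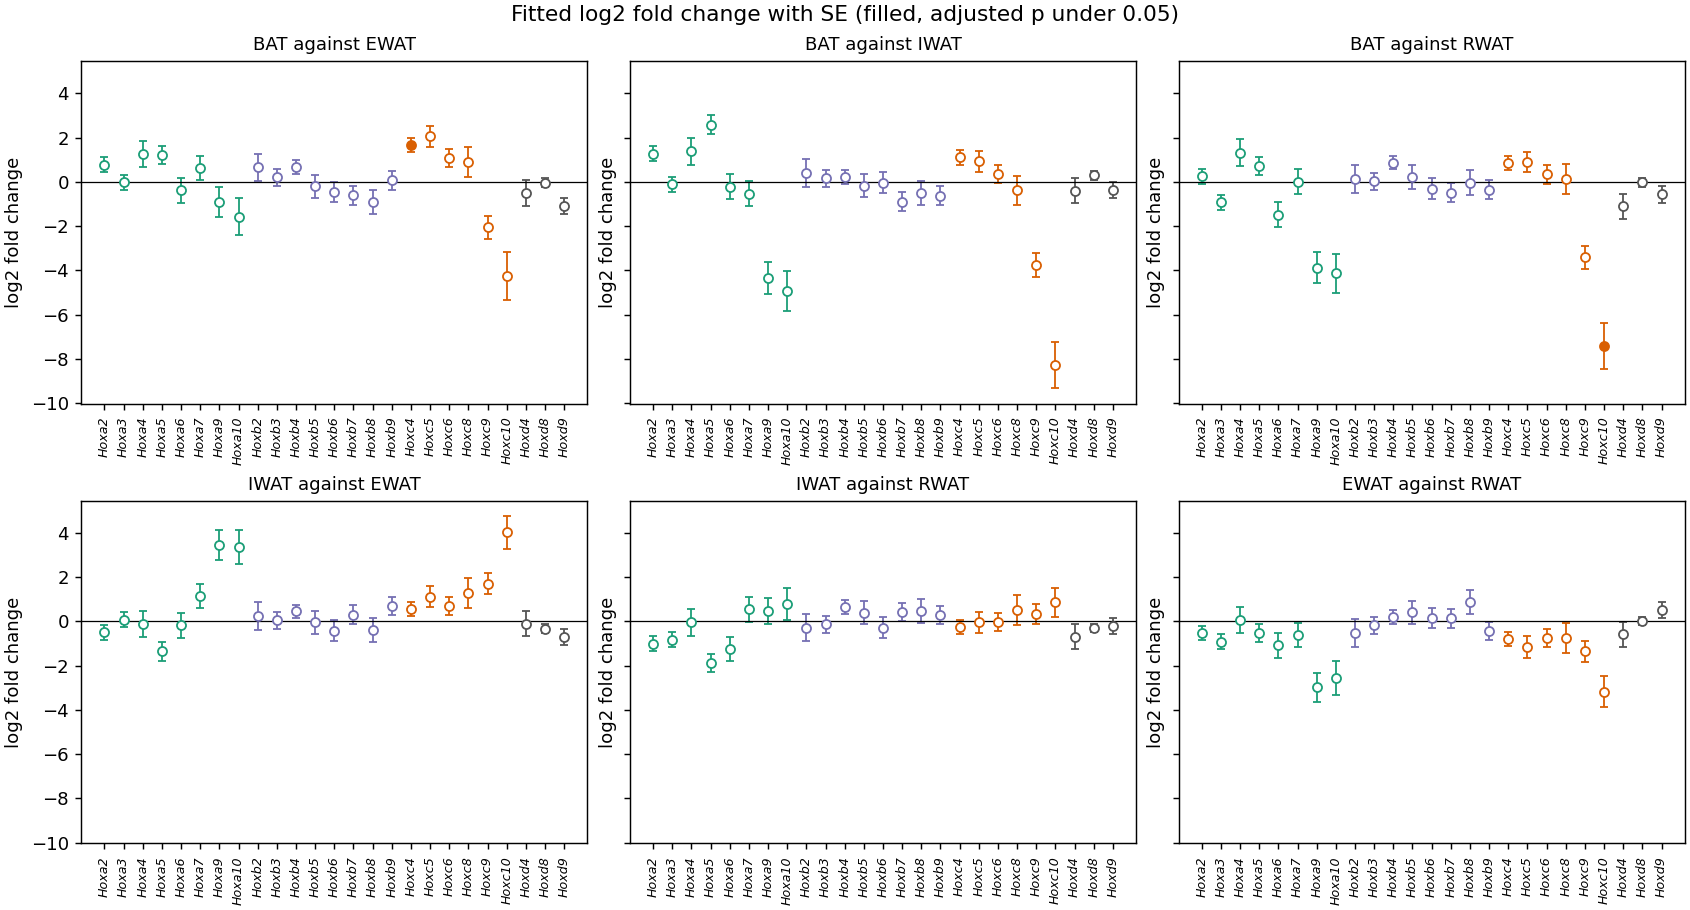
Fitted log2 fold change (vertical axis; bars, SE) of the 25 Hox genes tested, by cluster and paralogue number along the horizontal axis, in the 6 comparisons of depots; filled points passed an adjusted p of 0.05. Hoxa9, Hoxa10, Hoxc9 and Hoxc10 carry the largest changes in each comparison that sets BAT or EWAT against IWAT or RWAT, and the filled points are Hoxc4 in BAT against EWAT and Hoxc10 in BAT against RWAT.

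Genes that act with or on the clusters were not called in any of the 7 tests by edgeR. Of 9 TALE cofactors, all tested, 4 had an unadjusted p under 0.05 in BAT against EWAT, with a median log2 fold change of -0.57 against -0.08 over all genes, and DESeq2 called 4 (Pbx4, Meis1, Pknox1 and Pknox2). Over all 19154 genes, 5300 had an unadjusted p under 0.05 in that comparison and DESeq2 called 3210. DESeq2 also called Pbx4, Meis1 and Pknox2 for any depot difference and in IWAT against EWAT, Meis1 in BAT against RWAT and in IWAT against RWAT, and Pbx4 in EWAT against RWAT. Pbx4 had 1.16, 11.17 and 5.04 TPM in EWAT and at most 1.46 TPM elsewhere, and its 2 highest values came from the EWAT libraries with testis markers; the part of these in the value was not tested. The most abundant was Pbx2, at 21.1 ± 4.76 TPM in BAT, 25.4 ± 8.06 in IWAT, 27.7 ± 6.43 in EWAT and 25.7 ± 4.95 in RWAT (SD, n = 3 each). The caudal-type genes Cdx1, Cdx2 and Cdx4 were listed at 0 in all 12 libraries. Of 15 Polycomb genes, at most 1 had an unadjusted p under 0.05 in any comparison and DESeq2 called none; Eed, a core subunit of the repressive complex that methylates histone H3, was the most abundant over all depots, at 25.8 ± 10.8 TPM in BAT, 32.0 ± 13.1 in IWAT, 39.1 ± 7.19 in EWAT and 38.0 ± 11.9 in RWAT. Of 7 Trithorax genes, at most 2 had an unadjusted p under 0.05, and DESeq2 called 1, Ash2l, in BAT against EWAT; Ash2l, a subunit of the activating methyltransferase complexes, had 40.1 ± 17.7 TPM in BAT, 58.0 ± 33.5 in IWAT, 82.8 ± 11.2 in EWAT and 77.4 ± 9.39 in RWAT. Of 16 noncoding RNAs of the clusters, 5 could be tested, and Hotairm1, transcribed at the anterior end of HoxA, was the most abundant, with 15.1, 10.01 and 8.65 TPM in BAT, 9.67, 11.32 and 5.67 TPM in IWAT, 6.76, 5.81 and 6.25 TPM in EWAT and 4.90, 3.97 and 6.23 TPM in RWAT. At most 2 noncoding RNAs had an unadjusted p under 0.05 in a comparison, and DESeq2 called Hotairm1 and Hoxb3os in BAT against EWAT, and Hotairm1 for any depot difference. Of 10 genes that flank the clusters, 7 could be tested, and the most abundant was Hibadh, at 179 ± 32.1 TPM in BAT, 153 ± 52.9 in IWAT, 71.3 ± 8.68 in EWAT and 94.7 ± 70.5 in RWAT. At most 3 of these had an unadjusted p under 0.05, and DESeq2 called Hibadh and Mtx2 in BAT against EWAT.

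Hox genes overlap other transcripts, so some reads could be assigned to more than 1 gene. Exons of 9 members overlap an exon of another listed gene on the same strand, and those of 9 members overlap one on the opposite strand, while 23 members had neither. Hoxc5 and Hoxc10 overlap each other on the same strand, and the deposited posterior standard deviation of their counts was at most 1.81 counts in a library. Hoxc9, Hoxa10, Hoxc4 and Hoxa5 overlap no listed exon, and Hoxa9 overlaps that of Mir196b on its own strand, with a posterior standard deviation of 0. Whether reads were counted by strand is not given in the sources used here, so reads of Hoxa3, Hoxa4, Hoxa7, Hoxa11, Hoxb2, Hoxb3, Hoxb5, Hoxd3 and Hoxd4 cannot be told apart from those of their antisense partners.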

How the data were processed

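Per the labels' protocols, ribosomal RNA was removed from total RNA and 12 libraries were read from one end over 75 bases. The submitters' processing notes name the tools Trimmomatic 0.36, RSEM 1.3.0 and DESeq2 1.10.1 and the build GRCm38.p4, while the authors' annotation is not given in the sources used here. For each gene the authors deposited an estimated count from RSEM, which is not normalised, and a TPM. Per the file headers, the deposited tables also hold a length and a posterior standard deviation of the count. Coordinates are those of the GENCODE annotation of GRCm38 and promoter windows are from RefSeq (GRCm38.p6).

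After rounding of the estimated counts to whole numbers, filterByExpr kept 19154 genes, and TMM factors scaled the libraries. 1 edgeR quasi-likelihood fit of all 12 libraries (edgeR 4.0.16, limma 3.58.1, R 4.3.3), with 1 coefficient per depot, gave a test for any depot difference and 6 pairs. Calls required a p under 0.05 after Benjamini-Hochberg adjustment across the whole table. TPM gave levels, shares and ratios without tests. Ratios of summed counts have exact 95% intervals, which cover counting error only. Alternatives were RLE scaling, library sizes alone, DESeq2 1.42.0, no low-count filter, the replicate number as a block, and leaving out each library. The procedure was tested on simulated data. These had 1 spread for all genes, smaller than that of the libraries (coefficient of variation 0.448). Changes were put only into genes above a count limit that many Hox genes do not reach, so the simulation does not cover such genes.

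All Hox genes found by symbol could be named, with full statistics for those called; of a related list without calls, the member with the highest mean was named, and others named beside DESeq2 calls or the EWAT marker values were chosen after their values were seen. The members, gene lists and tests were chosen with earlier results of these data known, and the testis list was added after its genes had been seen. 1 gene matched by the symbol rule is not reported here.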

Additional observations from a re-analysis of the deposited data

How the results depend on the processing

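Only 3 libraries per depot and 1329 to 3392 Hox counts per library limit the calls. The 50 single-gene results recomputed were those with an unadjusted p under 0.05 in the main fit. Of these, 9 were tests for any depot difference, which have no fold change and so no direction. None of the pairwise results turned its direction. Without a library from outside the pair, the log2 fold change of Hoxc4 in BAT against EWAT stayed at 1.66. That of Hoxc10 in BAT against RWAT likewise stayed at -7.43, so such refits could not turn these directions. Among the other member results, small fold changes turned sign under RLE scaling (Hoxa3 in BAT against EWAT, Hoxd8 and Hoxb8 in BAT against RWAT). With library sizes alone, 3 members turned sign in BAT against EWAT, 1 in BAT against IWAT, 7 in BAT against RWAT and 3 in IWAT against EWAT. Of 850 single-gene values under an alternative, 742 kept their side of the threshold, 63 passed it and 45 no longer did. With RLE scaling no count of calls moved by over 1.5 times.

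With DESeq2 the Hox calls numbered 8 for any depot difference, 6 for BAT against EWAT, 5 for BAT against IWAT, 4 for BAT against RWAT, 4 for IWAT against EWAT, 1 for IWAT against RWAT and 3 for EWAT against RWAT. Over all genes DESeq2 called 2151, 3210, 168, 343, 1128, 175 and 546 in the same order, against 98, 150, 2, 11, 66, 0 and 8 with edgeR. With library sizes alone the Hox calls were 2 for BAT against EWAT (Hoxc9 and Hoxc10, with 233 genes called in all). They were 1 for BAT against IWAT (2 genes in all) and 2 for BAT against RWAT (10 genes in all). That scaling also split the BAT against EWAT calls over all genes into 62 higher and 171 lower, against 78 higher and 72 lower after TMM, and moved the median of all genes to -0.60 there, -0.28 in BAT against IWAT, -0.51 in BAT against RWAT, -0.31 in IWAT against EWAT and -0.23 in IWAT against RWAT. Without a low-count filter the Hox calls were 5 for any depot difference (436 genes in all) and 0 for BAT against EWAT (203 genes in all). They were 1 for BAT against IWAT (4 genes in all) and 1 for IWAT against EWAT (81 genes in all). The cause of these shifts was not tested.

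The labels do not say what a replicate number shares, and the numbers did not meet the criterion for pairing, a correlation over 0.1 in every same-numbered pair: of 18 same-numbered pairs, 10 had deviations correlated above 0.1 (range -0.347 to 0.677), and 8 of 12 libraries correlated best with their own number. That 8 did so is a hint from the data, not the design. With the replicate block, the Hoxc10 call of BAT against RWAT was lost (adjusted p = 0.0855, edgeR), Hox calls were 4 for BAT against EWAT, 0 for BAT against RWAT and 3 for IWAT against EWAT, and calls over all genes were 171 for any depot difference, 3542 for BAT against EWAT, 0 for BAT against IWAT, 1 for BAT against RWAT and 123 for IWAT against EWAT.

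Leaving out 1 library at a time, where the lone pair left in a depot was assumed to vary like the others, gave 0 to 5 Hox calls for any depot difference, 0 to 4 for BAT against EWAT, 0 to 5 for BAT against IWAT, 0 to 2 for BAT against RWAT and 0 to 2 for IWAT against EWAT. Over all genes the ranges were 11 to 363, 6 to 2626, 0 to 106, 0 to 54 and 8 to 193 in these comparisons, 0 to 3 for IWAT against RWAT and 0 to 87 for EWAT against RWAT.

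Restricted to groups 10 to 13, the posterior share was 0.342% in BAT, 13.9% in IWAT, 3.77% in EWAT and 8.18% in RWAT, as fewer genes are counted. From estimated counts in place of TPM, the IWAT share was 29.9%. The number of Hox genes detected stayed within 1.5 times under both other detection limits, though the last detected gene of a cluster did not always stay the same.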

Other observations

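The HoxB cluster, which had no call between depots, varied between libraries of 1 depot. Its summed level was 5.29, 12 and 15.0 TPM in BAT, 11.2, 13 and 16.8 TPM in IWAT, 21.1, 10.3 and 14.9 TPM in EWAT and 8.15, 16.2 and 22.0 TPM in RWAT. The 11 stromal progenitor markers summed to 4860, 7440 and 26000 CPM in BAT, 6720, 13600 and 23300 CPM in IWAT, 13900, 9260 and 11200 CPM in EWAT and 5930, 20500 and 34600 CPM in RWAT. Within each of the 4 depots the HoxB sums in TPM and the stromal sums in CPM put the 3 libraries in the same order. These scales are unlike. With the HoxB genes summed in CPM, the 3 IWAT libraries ran in the opposite order, so the match failed there. With cluster sums in TPM, the order matched that of the stromal sums in 1 depot for HoxA, 0 for HoxC and 2 for HoxD. Other lists also moved with the HoxB sum: adipocyte markers ran in the opposite order in 3 depots, skeletal muscle markers in the opposite order in 2 and the same order in 1, macrophage markers in the same order in 2 and the opposite in 1, and endothelial markers in the same order in 1. Of the 5 lists and 4 clusters set side by side, 1 combination matched in all depots, and only with the cluster sums in TPM. The comparison was chosen after the values were seen, and whether stromal cells carry the HoxB signal was not tested.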
